A study of Drosophila melanogaster with 6 samples.

Results

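The replication-independent histone variants are 5 genes, His2Av, His3.3A, His3.3B, His4r and cid, matched by their symbols among the 14210 genes of each FPKM table. FPKM counts sequenced fragments per length of transcript and per depth of library. Polyadenylated RNA came from Schneider 2 (S2) cells, a cultured line of Drosophila melanogaster embryonic origin. There were 3 CG1091 KO libraries, from S2 cells stably edited with CRISPR/Cas9 in CG1091, and 3 WT libraries, from cells of the wild-type genotype. CG1091 encodes Tailor, a terminal uridylyltransferase that adds uridines to RNA ends. The labels do not say whether the knockout line is 1 clone. They do not give separate cultures for the WT libraries either, so p-values reflect spread among these libraries that may be technical only.

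Canonical histones are made in S phase from a repeated gene cluster, and their mRNAs end in a stem-loop in place of a poly(A) tail. Variant histones are encoded by genes outside that cluster, with polyadenylated mRNAs, and can be deposited independently of replication. His2Av encodes the fly's H2A variant, which combines roles that other animals divide between H2A.Z and H2A.X, at promoters and at DNA breaks. His3.3A and His3.3B both encode H3.3, the H3 form placed on transcribed chromatin. His4r, the histone H4 replacement gene, encodes the same H4 protein as the cluster. The gene cid encodes the centromeric H3 variant of flies, on which the kinetochore is built.

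His2Av, His4r and cid mRNA fell in CG1091 KO cells, by 15.2%, 14.9% and 26.7% on the log2(FPKM + 1) scale, while the changes of both H3.3 genes were near 0. On this scale the added 1 shrinks the change of a gene with a low level, such as cid. All 5 variants passed the filter of a mean of 1 FPKM, 3 were called lower, 0 higher and 2 did not pass (limma, Benjamini-Hochberg adjusted p under 0.05 over 7259 genes). In the same test 62.1% of all tested genes were called, with 32.1% of all tested genes lower and 30.1% higher. The median log2 change was -0.23 over the 5 variants and -0.0087 over all tested genes. The share called among the 5 is thus near the background, and the genes are described one by one. With each library's trend with transcript length removed, His4r was no longer called (log2 change -0.05, limma adjusted p = 0.255). His2Av (-0.12) and cid (-0.35) were still called lower in that fit, and His3.3A was called higher (0.13, limma adjusted p = 0.0362). In bulk RNA, fewer cells carrying a transcript and less RNA per cell cannot be told apart.

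The libraries held 18411809 to 22536308 recovered fragments in CG1091 KO cells and 20896005 to 22957816 in WT cells, and FPKM values summed to 621110 to 656344 in CG1091 KO libraries and 665278 to 677330 in WT libraries. CG1091 itself stood at 22.3, 26.1 and 26.1 FPKM in CG1091 KO libraries and at 50.7, 51.2 and 47.7 FPKM in WT libraries, so its mRNA was lower but present in the knockout. Of 8 hemocyte markers, 6 had a mean of at least 1 FPKM, led by crq, srp and ush. Of these 6, 5 were called higher, against 30.1% of all tested genes called higher and 32.1% lower. Pxn was called lower, at 1.47 FPKM in CG1091 KO cells and 3.12 FPKM in WT cells (log2 change -0.74, limma adjusted p = 6.27e-05). Below the filter and not tested were Hml and NimC1. Hml averaged 1.52 FPKM in CG1091 KO cells and 0.398 FPKM in WT cells, and NimC1 0.170 and 0.0282 FPKM. All 8 markers summed to 390.4 to 400.0 FPKM in CG1091 KO libraries and 321.1 to 336.3 FPKM in WT libraries. Of 3 neuronal markers only elav reached 1 FPKM, and of 7 markers of germline, ovarian soma, muscle and fat body none did, with tj and Lsp2 at 0 in every library. The part of these marker differences in the results was not tested. Short transcripts were lower in CG1091 KO cells in general. In the shortest of 10 groups by effective length (median 583 nt) the median log2 change was -0.19 and 49.4% of genes were called lower, against 0.10 and 19.0% in the longest group (median 6041 nt). The effective lengths of the variants were 539 to 1309 nt, and all these lengths are on a relative scale.

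**Figure D1:**
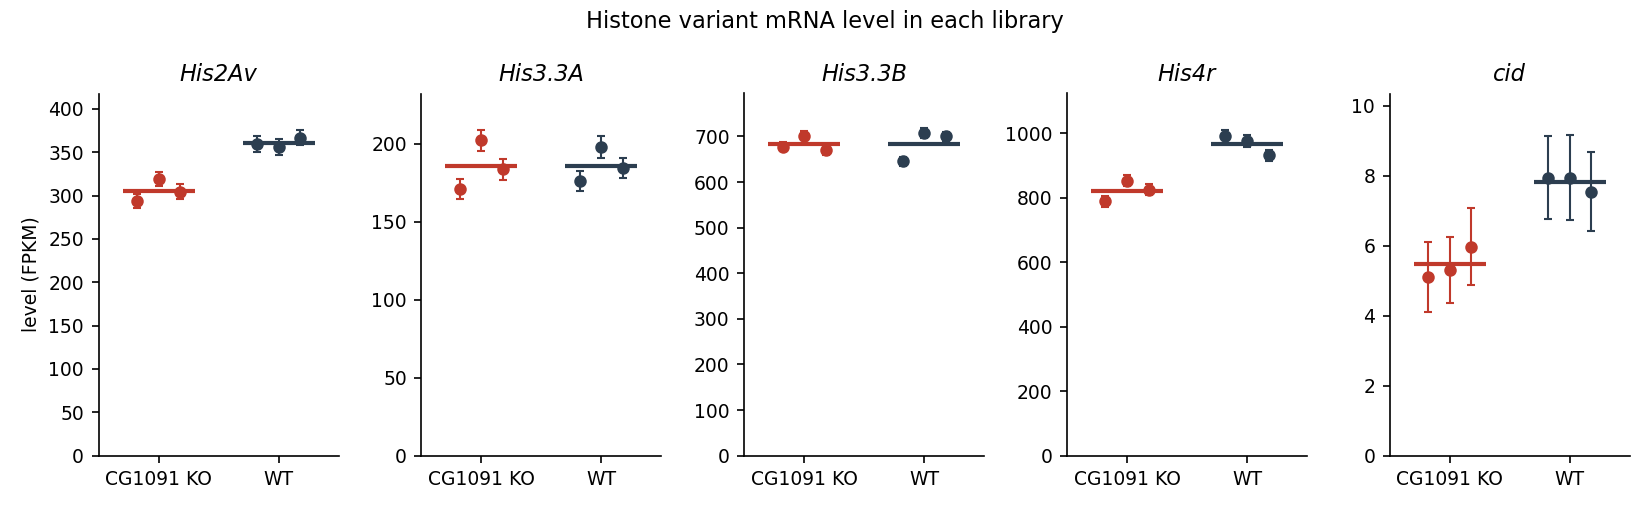
FPKM (linear axis from 0) of each variant gene in the 3 CG1091 KO and the 3 WT libraries. Points are libraries with the deposited confidence bounds, and bars are group means. The groups are apart in His2Av, His4r and cid, as in 67.3% of tested genes, and overlap in His3.3A and His3.3B.

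Levels differed widely among the 5 genes. His4r was highest, followed by His3.3B, His2Av and His3.3A, and cid was far below them. Means over the 6 libraries were 894.9, 683.8, 333.2, 185.8 and 6.64 FPKM in that order, and no neighbours in it had overlapping ranges. The His4r level was 1.17 to 1.54 times that of His3.3B in the same library, and the His3.3A level 22.2 to 38.1 times that of cid. Of all tested genes, 98.4% had a lower mean level than His4r and 17.8% a lower one than cid. His4r made up 41.1% ± 0.385 of the summed variant FPKM in CG1091 KO libraries and 43.8% ± 1.49 in WT libraries (SD, n = 3 each). His3.3B made up 34.1% ± 0.744 in CG1091 KO libraries and 31.0% ± 1.26 in WT libraries. The share of cid was at most 0.364% in any library.

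His2Av (FBgn0001197) lies on chromosome 3R at 22692653 to 22694630 in the files' coordinates, for which no source used here names a build. Its listed transcript has 4 exons and 912 nt in the Ensembl annotation of BDGP6, matched by transcript identifier. The gene stood at 294.0, 319.1 and 304.2 FPKM in CG1091 KO libraries, against 359.4, 356.1 and 366.6 FPKM in WT libraries. Every CG1091 KO library was below every WT library, a separation also seen in 67.3% of tested genes (34.5% with CG1091 KO lower). The means were 305.7 ± 12.6 FPKM in CG1091 KO cells and 360.7 ± 5.37 FPKM in WT cells (SD, n = 3 each). The log2 change was -0.24 (SE 0.040, 95% interval -0.33 to -0.15, limma adjusted p = 0.000355). Behind each value stand 4990 to 7362 fragments, so counting error is at most 1.42%. With each library's trend with transcript length removed, the log2 change of His2Av was -0.12 (limma adjusted p = 0.0061). For His2Av, the log2 change in the authors' deposited table was -0.24, here turned to knockout over wild type, at an adjusted p of 1.87e-05.

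Of the H3.3 genes, His3.3A (FBgn0014857) lies on chromosome 2L at 5055058 to 5055995 and His3.3B (FBgn0004828) on chromosome X at 9047271 to 9050721. His3.3A stood at 170.8, 202.1 and 183.6 FPKM in CG1091 KO libraries and at 176.0, 197.7 and 184.3 FPKM in WT libraries. His3.3B stood at 677.6, 701.8 and 670.0 FPKM in CG1091 KO libraries and at 645.1, 707.7 and 700.7 FPKM in WT libraries. In both genes the groups overlapped, and the spread between libraries of 1 group was larger than the difference between group means. The log2 change was -0.0057 for His3.3A (95% interval -0.14 to 0.13, limma adjusted p = 0.943) and -0.0020 for His3.3B (95% interval -0.10 to 0.10, limma adjusted p = 0.975). Changes below 0.906-fold or above 1.09-fold in His3.3A, and below 0.930-fold or above 1.07-fold in His3.3B, lie outside these intervals. The authors' deposited table also called His2Av, His4r and cid lower and neither H3.3 gene, where 36.0% of its 11643 genes were called and 18.3% were called lower. The sign of so small a change turned under several alternatives. With the length trend removed, His3.3A stood at a log2 change of 0.13 and was called higher (limma adjusted p = 0.0362), and His3.3B stood at 0.07 (limma adjusted p = 0.149). In that fit 61.7% of all genes were called and 30.5% were called lower.

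No difference between the groups was detected in the division of H3.3 mRNA between its 2 genes. The His3.3B to His3.3A ratio was 3.97, 3.47 and 3.65 in CG1091 KO libraries and 3.67, 3.58 and 3.80 in WT libraries. His3.3B supplied 77.6% to 79.9% of the summed H3.3 FPKM over all 6 libraries. The log2 ratio differed by 0.0038 between the groups (1.88 ± 0.097 in CG1091 KO and 1.88 ± 0.044 in WT, SD, n = 3 each, two-sided exact permutation p = 1.0). Summed over both genes, H3.3 mRNA averaged 868.6 ± 30.7 FPKM in CG1091 KO cells and 870.5 ± 44.0 FPKM in WT cells (SD, n = 3 each, log2 change -0.0025, exact permutation p = 0.9). With the length trend removed the log2 change of the sum was 0.08, at p = 0.1 in the exact permutation test, the smallest p that 3 libraries against 3 allow.

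The last 14 nt of the His3.3A span overlap the end of CG31918 (FBgn0031678), which BDGP6 places on the opposite strand. CG31918 fell to 104.2 ± 3.51 FPKM in CG1091 KO cells, against 560.8 ± 10.03 FPKM in WT cells (log2 change -2.42, limma adjusted p = 2.05e-12). No source used here says whether strand was used in counting, so reads at that end of His3.3A are uncertain. The other 4 variants overlap no listed gene, but the span of bbc lies 3 nt from that of cid on the opposite strand. Per library, bbc had 6452 to 11500 fragments and cid 105 to 180. Whether reads from bbc entered the cid values was not tested.

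His4r (FBgn0013981) lies on chromosome 3R at 10451461 to 10452336 and has 3 listed transcripts with 576, 645 and 753 nt of exon in BDGP6, the shortest of the variant mRNAs. It stood at 789.6, 853.2 and 825.9 FPKM in CG1091 KO libraries, against 991.0, 977.0 and 932.5 FPKM in WT libraries. All CG1091 KO values were below all WT values, as they were in 34.5% of tested genes. The log2 change was -0.23 (SE 0.046, 95% interval -0.33 to -0.13, limma adjusted p = 0.00109). With the length trend removed the call of His4r was lost, at a log2 change of -0.05 (limma adjusted p = 0.255), where the trend removed at its length was -0.19. At the lengths of His2Av, His3.3A, His3.3B and cid the trend was -0.12, -0.13, -0.07 and -0.10. For His4r, the authors' deposited table listed a log2 change of -0.22 at an adjusted p of 5.25e-05. His4r encodes the same protein as the cluster's H4 genes, and a read shared with one of them would be ambiguous; all 22 listed H4 genes of the cluster were at 0 in every library.

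The centromeric variant cid (FBgn0040477) lies on chromosome 2R at 9373106 to 9374136 and is the 1 member without an intron in BDGP6 (1 exon, 1015 nt). Its levels were 5.11, 5.31 and 5.97 FPKM in CG1091 KO libraries, against 7.94, 7.94 and 7.55 FPKM in WT libraries. The highest CG1091 KO value lay below the lowest WT value, as it did in 34.5% of tested genes. Means were 5.46 ± 0.451 FPKM in CG1091 KO cells and 7.81 ± 0.228 FPKM in WT cells (SD, n = 3 each). The log2 change was -0.45 (SE 0.074, 95% interval -0.61 to -0.28, limma adjusted p = 0.000336), a value that 10.03% of tested genes fell below. At 105 to 180 fragments per library, counting error reached 9.76%, and the spread of cid between CG1091 KO libraries was 8.26% of their mean. The log2 change was -0.35 with the length trend removed (limma adjusted p = 0.00181). It was -0.51 with a pseudocount of 0.1 and -0.29 with one of 5, as a larger pseudocount shrinks the change of a low gene more. In the authors' deposited table cid had a log2 change of -0.51 at an adjusted p of 0.00239, from mean normalised counts of 120.7 in the knockout and 172.3 in wild type.

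**Figure D2:**
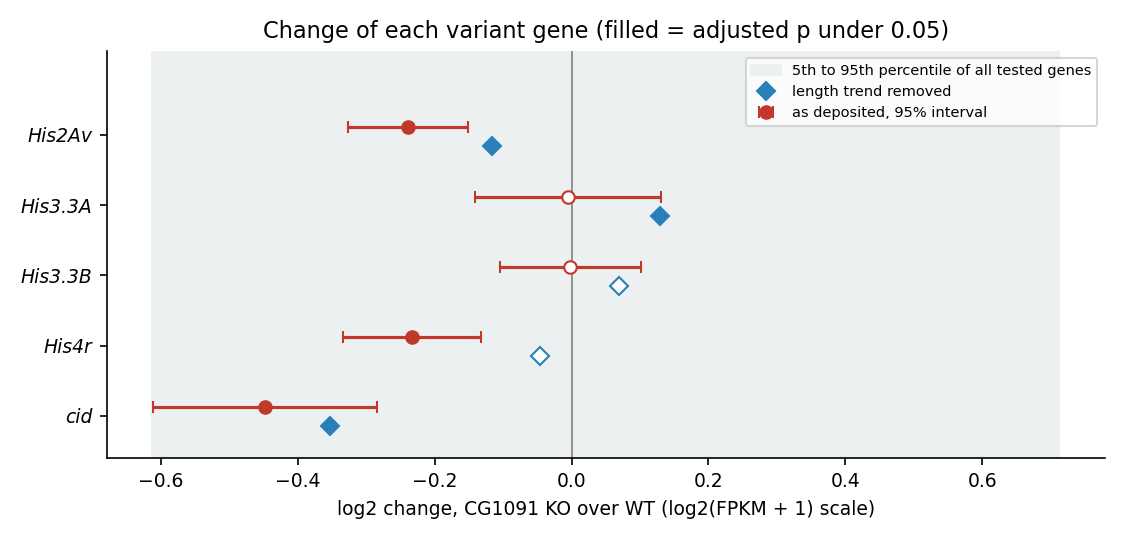
Log2 change of each variant, CG1091 KO over WT, on the horizontal axis. Circles are values from the deposited FPKM with their 95% intervals, diamonds are values after each library's length trend was removed, filled symbols have an adjusted p under 0.05, and the grey band spans the 5th to 95th percentile of all tested genes (-0.61 to 0.71). His2Av and cid stay below 0 with filled symbols in both, whereas His4r moves from -0.23 to -0.05.

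Ratios within a library do not depend on how libraries are scaled to each other, but they do depend on the length trend where 2 transcripts differ in length. The His2Av to summed H3.3 ratio was 0.346, 0.353 and 0.356 in CG1091 KO libraries and 0.438, 0.393 and 0.414 in WT libraries. His4r to summed H3.3 was 0.931, 0.944 and 0.968 in CG1091 KO libraries and 1.21, 1.08 and 1.05 in WT libraries. For cid the same ratio was 0.00602, 0.00588 and 0.00700 in CG1091 KO libraries and 0.00967, 0.00877 and 0.00853 in WT libraries. In all 3 ratios every CG1091 KO library was below every WT library. Of single tested genes 34.5% were separated in this direction, and the share over other ratios was not computed. The differences in log2 ratio, CG1091 KO minus WT, were -0.24, -0.23 and -0.52, with a two-sided exact permutation p = 0.1 for each, the smallest that 3 libraries against 3 allow. With the length trend removed they were -0.20 for His2Av, -0.13 for His4r and -0.49 for cid, at the same p, so the difference of His4r was the one that moved by over 1.5 times.

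Over the 10 pairs of the 5 genes, the groups' ratios were apart in 8 and overlapped in 2 (exact permutation p = 0.1 and adjusted p = 0.125 over the pairs for each of the 8). Those that overlapped were His3.3B to His3.3A and His2Av to His4r. Of single tested genes 67.3% had the groups apart, and the share over all gene pairs was not computed. The 10 pairs share the same 5 genes and are not independent, so their count adds little to the changes of the single genes. The log2 ratio of His2Av to His4r was -1.43 ± 0.011 in CG1091 KO libraries and -1.42 ± 0.065 in WT libraries (SD, n = 3 each, exact permutation p = 1.0), and its difference turned sign when WT replicate 3 was left out (0.03). The cid gene was lower relative to each of the other 4. Its difference in log2 ratio was -0.28 to His2Av, -0.29 to His4r, -0.52 to His3.3B and -0.51 to His3.3A. With the length trend removed, 8 pairs were again apart, but not the same 8. His4r to His3.3B then overlapped, at a difference of -0.12 against -0.23 with the trend kept (exact permutation p = 0.2), and His2Av to His4r was apart at -0.07 (exact permutation p = 0.1).

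**Figure D3:**
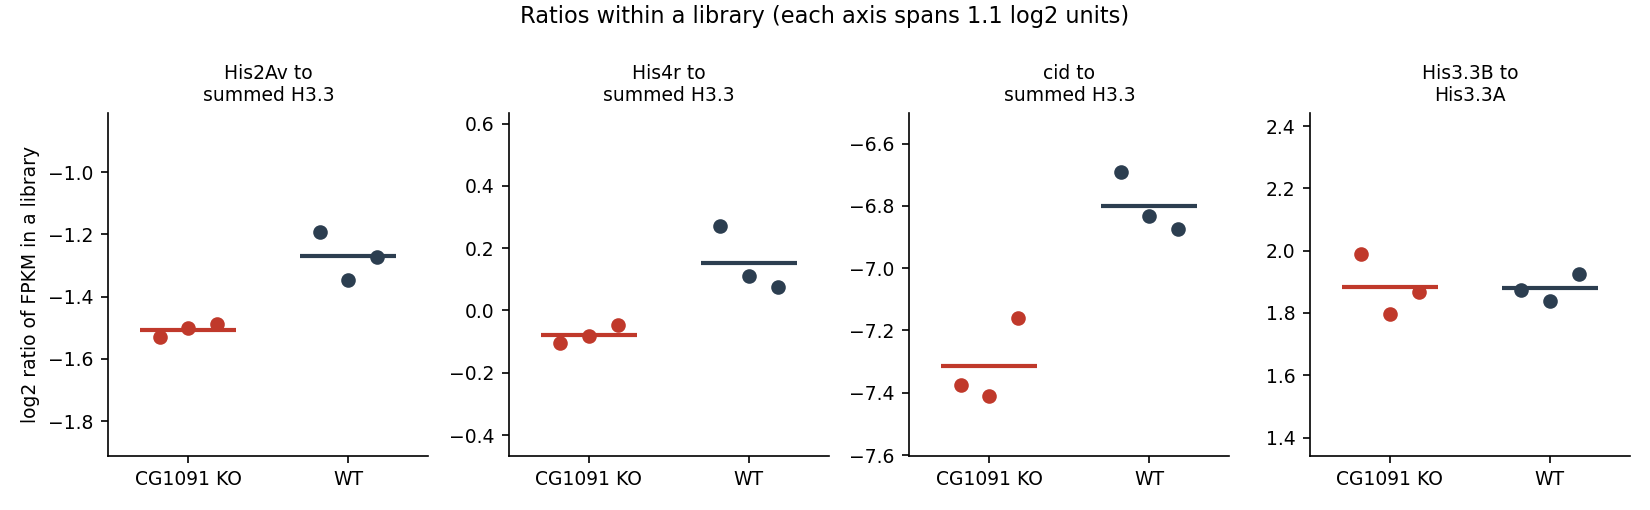
Log2 ratio of FPKM within each library, for His2Av, His4r and cid over the sum of His3.3A and His3.3B, and for His3.3B over His3.3A. Points are libraries, bars are group means, and each axis spans the same number of log2 units. The CG1091 KO libraries lie below the WT libraries in the first 3 panels and overlap them in the last.

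The genes with library profiles most like each variant were found by the root mean square difference between centred log2(FPKM + 1) values over the 6 libraries, a description in which all genes share the libraries and their depth. Closest to His2Av were Act42A, Trip1 and CG5325 (0.0121, 0.0129 and 0.0132 log2 units). His4r was closest to Dmn, Ppox and Srp68 (0.0131, 0.0193 and 0.0196) and cid to CG1789, CG13993 and mrn (0.0255, 0.0311 and 0.0314). For His3.3A they were CG6583, CG8321 and CG5010 (0.0135, 0.0208 and 0.0239), and for His3.3B Lam, CG7536 and CG8378 (0.0162, 0.0184 and 0.0193). No variant was among the 3 closest genes of another.

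Of 16 genes of the Domino and Tip60 complexes, which exchange and acetylate H2Av, 6 fell, 1 rose and 9 did not pass. The median log2 change was -0.11 and 43.8% of the list was called, against 62.1% of all tested genes. Nipped-A, the large scaffold subunit related to TRRAP, fell to 36.1 ± 4.75 FPKM in CG1091 KO cells, against 48.7 ± 1.90 FPKM in WT cells (limma adjusted p = 0.000799). Gas41, which carries a YEATS domain, had a log2 change of -0.31 (limma adjusted p = 0.000447) and the chromodomain protein gene MRG15 one of -0.29 (limma adjusted p = 0.00185). The ATPase gene dom, which drives the exchange, was at 32.7 FPKM in CG1091 KO cells and 37.8 FPKM in WT cells (log2 change -0.21, limma adjusted p = 0.0364). The 1 member that rose was Ing3, at 9.91 ± 0.290 FPKM in CG1091 KO cells and 7.26 ± 0.743 FPKM in WT cells (limma adjusted p = 0.000747). Without WT replicate 1, 4 of the 16 were called. The gene dom falls outside the rule for named genes and was chosen for its role after its value was seen.

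Of 16 histone chaperones and assembly factors, 5 were higher, 5 lower and 6 not past the threshold (62.5% called, median log2 change -0.03). These shares are near those of all tested genes, with 62.1% called, 30.1% higher and 32.1% lower. ADD1, listed as CG8290 and related to the ADD domain of ATRX, rose to 30.9 ± 1.03 FPKM in CG1091 KO cells, against 20.1 ± 0.835 FPKM in WT cells (limma adjusted p = 2.84e-06). Yem, listed as yemalpha and the partner of Hira in H3.3 deposition, rose to 16.9 ± 0.505 FPKM in CG1091 KO cells, against 12.5 ± 0.250 FPKM in WT cells (limma adjusted p = 6.79e-05). Hira itself fell slightly (log2 change -0.18, limma adjusted p = 0.013), a gene named after its value was seen. Nph, a nucleoplasmin family gene listed as CG7911, had a log2 change of 0.20 (limma adjusted p = 0.0027). Caf1-55, a histone-binding subunit of CAF-1 and of other chromatin complexes, fell to 79.5 ± 2.99 FPKM in CG1091 KO cells, against 101.1 ± 2.56 FPKM in WT cells (limma adjusted p = 4.07e-05).

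Among 15 genes of the centromere and kinetochore 5 fell, 2 rose and 8 did not pass (46.7% called, median log2 change -0.13). Of all tested genes 62.1% were called, with 32.1% lower and 30.1% higher. Nnf1a, of the Mis12 complex, fell to 26.1 ± 0.701 FPKM in CG1091 KO cells, against 40.0 ± 2.47 FPKM in WT cells (limma adjusted p = 3.49e-06). Within the Ndc80 complex, which binds microtubules, Spc25 fell and Nuf2 rose, with log2 changes of -0.50 and 0.50 (limma adjusted p = 1.84e-05 and 1.42e-05). Incenp, of the chromosomal passenger complex, had a log2 change of -0.25 (limma adjusted p = 0.000362). The other member that rose, named after its value was seen, was cal1, the loading factor of the cid protein, at 15.8 FPKM in CG1091 KO cells and 13.3 FPKM in WT cells (log2 change 0.23, limma adjusted p = 0.0172). Without WT replicate 3, 4 of the 15 were called.

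Among 11 genes that process the stem-loop mRNAs of the canonical histones, 3 were lower, 1 was higher and 7 did not pass (median log2 change 0.0025). This shortest of the 4 lists had 36.4% called, against 62.1% of all tested genes (32.1% lower and 30.1% higher). Ars2, which acts with the nuclear cap-binding complex, rose to 84.2 ± 2.13 FPKM in CG1091 KO cells, against 67.5 ± 1.72 FPKM in WT cells (limma adjusted p = 5.93e-05). Mxc, a core protein of the histone locus body, had a log2 change of -0.27 (limma adjusted p = 0.00541). Lsm11, of the U7 particle, had one of -0.46 at a level of 2.11 FPKM in CG1091 KO cells and 3.27 FPKM in WT cells (limma adjusted p = 0.00419). At so low a level the added 1 shrinks the change, which was -0.67 in the authors' deposited table. The cleavage factor gene Cpsf100 had a log2 change of -0.17 (limma adjusted p = 0.017), which did not pass without WT replicate 1 (adjusted p = 0.058). Slbp, which binds the stem-loop and was named after its value was seen, stood at 49.0 FPKM in CG1091 KO cells and 46.4 FPKM in WT cells (log2 change 0.08, limma adjusted p = 0.14).

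**Figure D4:**
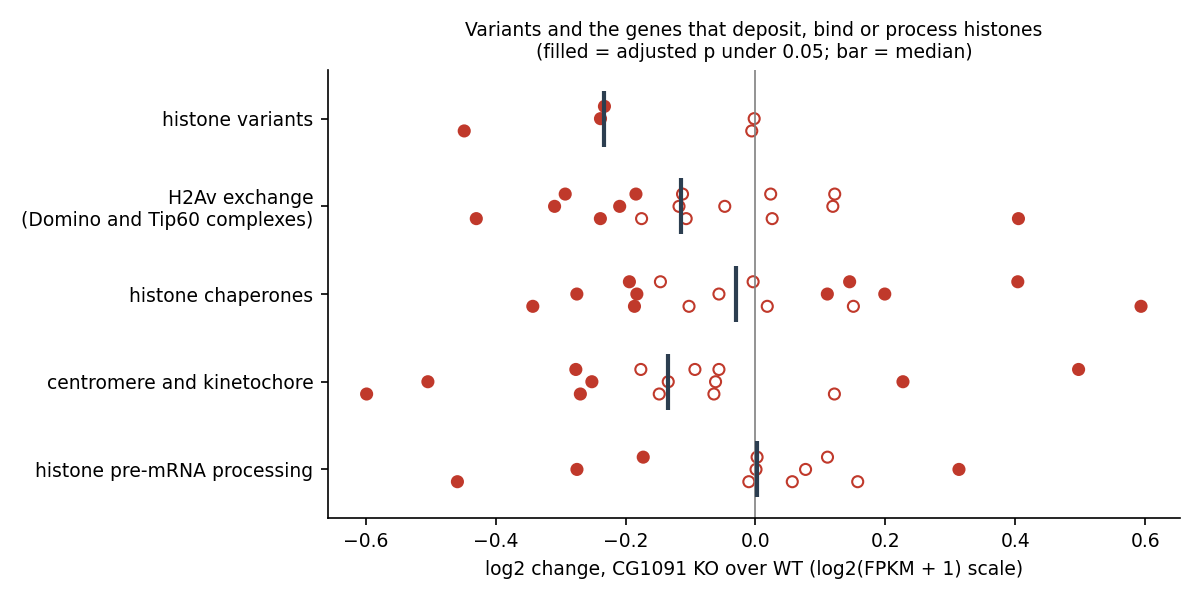
Log2 change, CG1091 KO over WT, of the 5 variants and of each gene in 4 lists of genes that deposit, bind or process histones. Filled points have an adjusted p under 0.05 and bars are medians, which run from -0.23 for the variants to 0.0025 for histone pre-mRNA processing.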

How the data were processed

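Polyadenylated RNA was measured in 3 CG1091 KO and 3 WT libraries, grouped by their titles. RNA was extracted with Trizol and made into directional NEBNext libraries, per the labels' protocols. A deposited gene table per library gives FPKM and confidence bounds, and its column names are those of Cufflinks. The comparison table that the authors deposited gives a signal, the mean normalised count, for each group. The authors also deposited the fold ratio of these means and its log2, wild type over knockout, whose sign was turned here. The authors deposited raw and adjusted p-values in the same table. DESeq 1.10.1, HTSeq 0.6.1p1, Cufflinks 1.3.0, TopHat 1.4.1 and BWA 0.6.1 are named in the submitters' processing notes with no roles. Coordinates are those of the files, counted from 1, and no source used here names their build.

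The variants and gene lists were chosen with earlier results of these data known. Of 14210 genes, the 7259 averaging 1 FPKM or more entered limma (version 3.58.1 under R 4.3.3, trend and robust) as log2(FPKM + 1). P-values were adjusted by Benjamini-Hochberg over all of them at a threshold of 0.05. The test was checked on simulated data. Ratios and the H3.3 sum were compared with a two-sided exact permutation test (scipy 1.17.1). Effective fragment numbers came from the deposited bounds, taking the distance from FPKM to the upper bound as 2 counting SDs. For single-transcript genes, 92.6% to 93.1% of such numbers under 30 lay within 0.02 of a whole number. Some numbers are far too low. FLASH came to 7.0 in CG1091 KO replicate 2, against 581.0 and 567.9 in replicates 1 and 3 at a like FPKM. Spc105R came to 15.7 in WT replicate 3, against 2410.5 and 2584.6 in WT replicates 1 and 2. Such values stayed in the limma-voom setting and the library sums. All fragment numbers sum to 18411809 to 22957816 per library, and counting errors cover counting alone. An effective length is the fragment number per unit of FPKM, scaled by the library's recovered total. It is known only up to a constant, so its nt are relative. For cid it was 1063, above the gene's span of 1031 nt. No pair of libraries shared the FPKM of more than 0.0139% of the genes at 1 FPKM or more in both.

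Named genes were the 5 variants, CG1091, genes overlapping a variant, the 3 closest profiles per variant and up to 4 called genes per list by smallest p. Of the 58 list genes, 56 were matched to the files by current gene identifier and 2, DLP and Cenp-C, by the symbol in the files. Other settings tried were pseudocounts (0.1 and 5), filters (none, or 5 FPKM on average), scaling by medians, quantile normalization, removal of each library's length trend (lowess, span 0.3), plain eBayes, a replicate block, limma-voom on effective fragments, the authors' deposited table and leaving out each replicate. The ratios among all 10 pairs and the list of neighbours within 1000 nt were added after the files were seen, as was the removal of the length trend from the ratios and the H3.3 sum. Figures were drawn with matplotlib 3.10.9.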

Additional observations from a re-analysis of the deposited data

How the results depend on the processing

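The calls of His2Av and cid and their direction held in all 17 alternatives (log2 change -0.27 to -0.12 for His2Av and -0.51 to -0.29 for cid). His4r held in 16 of 17 (-0.26 to -0.20 when leaving out each replicate) and missed the threshold with the length trend removed (-0.045, adjusted p = 0.255), where the trend removed at its length was -0.19. The H3.3 changes, close to 0, turned sign with the length trend removed (0.13 for His3.3A and 0.070 for His3.3B), with limma-voom on effective fragments (0.043 and 0.037) and with the authors' deposited table (0.017 and 0.010). Leaving out each replicate gave -0.069 to 0.052 for His3.3A, -0.044 to 0.023 for His3.3B, -0.044 to 0.026 for the H3.3 sum, -0.048 to 0.048 for the His3.3B to His3.3A log2 ratio and -0.027 to 0.031 for the difference of His2Av to His4r. Group means of the authors' deposited table gave 0.011 for the sum and -0.0071 for the ratio, and removal of the length trend gave 0.083 and -0.060. The cause of these turns was not tested. Genes called over the whole table numbered 3987 to 4541 over the alternatives. Leaving out each replicate gave 4 to 7 called genes for both the Domino and Tip60 list and the centromere list.

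No shared deviation of same-numbered libraries was seen (correlations of -0.0495, 0.00286 and -0.032). With 3 libraries per group, these values cannot tell whether such libraries shared a culture or preparation. With the replicate number as a block 4393 genes were called, and His2Av, His4r and cid stood at adjusted p = 0.00078, 0.00211 and 0.00103. The permutation within replicate numbers gave p = 1.0 for the H3.3 ratio and p = 0.75 for the sum, where the smallest possible is 0.25. Depth limits cid most.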

Other observations

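Nearly all canonical histone genes were listed at 0. Of 111 listed genes of the histone cluster on chromosome 2L, 108 were at 0 in all 6 libraries, and 0 reached a mean of 1 FPKM. No source used here says how reads shared among these near-identical copies were treated. The one copy listed above 0 in every library was His2B:CG17949, chosen after its values were seen. It stood at 0.901, 0.734 and 0.920 FPKM in CG1091 KO libraries, against 0.0774, 0.295 and 0.198 FPKM in WT libraries. These rest on 11, 11 and 11 fragments in CG1091 KO libraries and 1, 4 and 3 in WT libraries. Without the filter its log2 change was 0.64 (limma adjusted p = 0.000987), and the authors' deposited table gave 2.16 at an adjusted p of 0.014.

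Genes within 1000 nt of a variant did not all share its change. Not called were put beside His4r (log2 change -0.0037) and cbc beside cid (-0.16, limma adjusted p = 0.0509). CG14040, beside His3.3A, was not called either (-0.0076), like His3.3A itself (-0.0057). CG7886, also beside His4r, averaged 0.156 FPKM and was not tested. The kinase gene ball, which phosphorylates nucleosomal H2A and starts 124 nt from His2Av on the opposite strand, stood at 29.2 ± 0.807 FPKM in CG1091 KO cells and 30.7 ± 0.348 FPKM in WT cells (log2 change -0.07, limma adjusted p = 0.213). BM-40-SPARC, a matrix protein gene 330 nt from the other end of His2Av, fell to 579.2 ± 44.9 FPKM in CG1091 KO cells, against 1741 ± 19.3 FPKM in WT cells (limma adjusted p = 1.34e-09). The span of bbc, a phospholipid synthesis gene on the opposite strand, lies 3 nt from that of cid. It fell to 146.6 ± 3.04 FPKM in CG1091 KO cells, against 213.3 ± 2.35 FPKM in WT cells (log2 change -0.54, limma adjusted p = 2.81e-07). Next to His3.3A, CG14036 had a log2 change of 0.61 (limma adjusted p = 0.0036), and an adjusted p of 0.0552 in the authors' deposited table. Ost48, beside His3.3B, had one of -0.14 (limma adjusted p = 0.0116), which did not pass without CG1091 KO replicate 1 (adjusted p = 0.0514) or without CG1091 KO replicate 3 (adjusted p = 0.0563).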
